A study of Mus musculus with 8 samples.

Results

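The Eph receptors, the ephrins, the Slits and their Robo receptors, and the netrins with their receptors and partners make up most of the classical axon guidance genes. In mouse dorsal forebrain at E12.5 (embryonic day), 12 of 42 tested genes of these families differed between embryos lacking Sufu in the dorsal forebrain and controls. These were 28.6% of the 42, against 11.0% of all tested genes. Epha3, Robo2, Robo3, Ntn1 and Ntng2 were higher, and Epha4, Epha7, Ephb3, Efna3, Efna4, Slit2 and Rgma were lower. Epha7, Efna4, Robo3, Ntng2 and Rgma lost their call (adjusted p below 0.05, edgeR) in 4 to 7 of the 8 fits that left out a sample. The members were the protein-coding genes whose symbols name an Eph receptor, an ephrin, a Slit, a Robo, a netrin or netrin-G, Dcc, Neo1, an UNC5 receptor, Rgma, Rgmb or Draxin. The rule found 44 genes among 43629 gene IDs, and 42 of the 44 were among the 15382 genes with enough counts to test. The other two, Epha10 and Ntn5, were low in both genotypes: Epha10 had 4 to 8 counts in Sufu-cKO samples and 4 to 12 in control samples, and Ntn5 had 0 to 2 in Sufu-cKO samples and 1 to 5 in control samples.

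The Sufu-cKO samples were Emx1-cre/+;Sufu-fl/fl (n = 4: Mut_295, Mut_317, Mut_337 and Mut_340), and the control samples were Sufu-fl/fl or Sufu-fl/+ (n = 4: Cont_294, Cont_345, Cont_365 and Cont_370). All 8 samples were male and of a mixed background that includes C57BL/6J. A control therefore carried 1 or 2 floxed Sufu alleles, and the labels do not say which control carried which. Emx1-cre is active in progenitors of the dorsal telencephalon and in the cells they give rise to, whereas vessels, meninges and ventral cells are largely outside that lineage. Polyadenylated RNA was sequenced with a stranded kit. Nothing in the labels says whether samples came from separate embryos or litters, and every p-value here reflects only sample-to-sample spread, part of which may be technical.

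Eph receptors are receptor tyrosine kinases that bind ephrins on neighbouring cells: EphA receptors mostly bind the lipid-anchored ephrin-A proteins and EphB receptors the transmembrane ephrin-B proteins, and both partners can signal. Slits are secreted proteins that repel growing axons through Robo receptors. Netrin-1 attracts axons through DCC and repels them through UNC5 receptors, while the repulsive guidance molecules (RGMs) bind neogenin, a relative of DCC, and draxin binds both DCC and netrin-1. In the developing cortex these systems guide thalamocortical and callosal axons, place migrating neurons and mark out areas. Sufu is a negative regulator of the hedgehog pathway that restrains the GLI transcription factors.

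Total counts ranged from 27514357 to 34878838 per sample. Sufu itself measured 44.8, 44.5, 37.4 and 35.9 CPM (counts scaled to the size of the library) in Sufu-cKO samples, against 106, 125, 112 and 105 CPM in control samples, which matches the genotype labels. Several lists of cell type marker genes moved with the genotype. The summed level of 8 progenitor genes was 4128 to 4367 CPM in Sufu-cKO samples and 2987 to 3321 CPM in control samples, with 4 higher and 0 lower by the edgeR test. Vim and Nes made up the largest parts of that sum, with means of 1348 and 1140 CPM in Sufu-cKO samples and 998 and 849 CPM in control samples. Hes1, Hes5 and Fabp7, not called, had log2 fold changes of −0.20, −0.19 and −0.34. The summed level of 8 young-neuron genes was 2186 to 2367 CPM in Sufu-cKO samples and 1777 to 2058 CPM in control samples, with 3 higher and 0 lower. Dcx, one of the higher genes, averaged 708 CPM in Sufu-cKO samples and 512 CPM in control samples. Map2, Nefl, Tubb3, Rbfox3 and Stmn2, not called, had log2 fold changes of 0.01 to 0.28. The summed level of 8 cortical hem and choroid plexus genes was 158 to 344 CPM in Sufu-cKO samples and 560 to 807 CPM in control samples, with 0 higher and 3 lower. The 3 lower genes, Htr2c, Folr1 and Kcne2, are choroid plexus genes, and the choroid plexus gene Ttr, not called, made up the largest part of the sum, with a mean of 143 CPM in Sufu-cKO samples and 465 CPM in control samples. The 4 hem genes, Wnt3a, Wnt2b, Rspo1 and Rspo2, were not called, with log2 fold changes of −0.14 to −0.04. That of 7 pericyte genes was 110 to 138 CPM in Sufu-cKO samples and 145 to 172 CPM in control samples, with 0 higher and 1 lower (Vtn, log2 fold change −0.72; adjusted p = 0.00119, edgeR). None of these ranges overlapped. That of 8 meningeal genes was 691 to 1538 CPM in Sufu-cKO samples and 858 to 918 CPM in control samples, with Mut_337 the highest sample, 1 gene higher and 0 lower, and no marker gene was at 0 in all samples. Their part in the differences below was not tested, and in bulk tissue fewer cells of a type and less RNA per cell cannot be told apart. Of 8 dorsal telencephalic genes, all were tested, 2 were higher and 4 lower, and their sum was 1778 to 2067 CPM in Sufu-cKO samples and 2034 to 2308 CPM in control samples.

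Genes were called at an adjusted p below 0.05 by edgeR's quasi-likelihood test, adjusted over all 15382 tested genes. The 12 called guidance genes were 28.6% of the 42 tested, against 11.0% of all tested genes. The 5 higher genes were 11.9% of the 42, against 5.34% of all tested genes, and the 7 lower genes were 16.7%, against 5.64%. Every Sufu-cKO sample was above every control sample in 7 of the 42, where 8.33% of all tested genes showed this, and below in 8, where 7.86% did. Of the 12 called genes, 11 had groups that did not overlap, the exception being Epha7. Ntng1 and Rgmb (above) and Ephb4 and Unc5b (below) had groups that did not overlap but did not pass the test. The median log2 fold change (Sufu-cKO over control) of the 42 genes was −0.06, against 0.01 over all tested genes, and their median absolute log2 fold change was 0.24, against 0.12. No family had all its members called, and within the EphA receptors called genes went both ways.

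**Figure D1:**
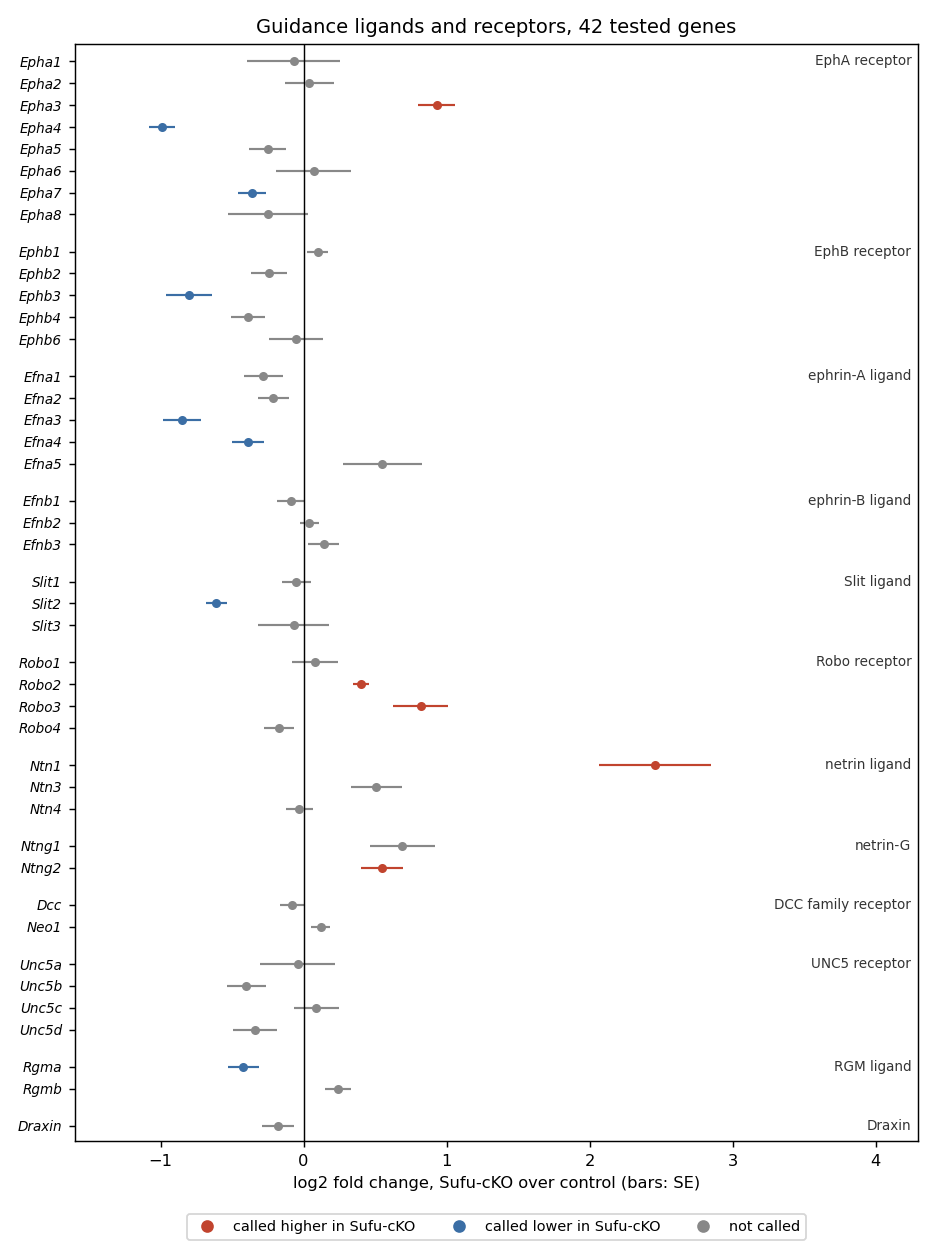
Log2 fold change of each tested guidance gene, Sufu-cKO over control, grouped by role down the page, with bars of 1 standard error on either side. Ntn1 lies farthest to the right at 2.46 and Epha4 farthest to the left at −0.99, while the 3 ephrin-B genes lie between −0.09 and 0.14.

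Promoter sequences are shown for 4 of the 7 called genes that stayed called whichever sample was left out, because GLI factors bind a known DNA motif. Of the others, Ephb3 and Efna3 also had promoters with matches, which are not shown, and Ntn1 had no promoter among those searched. They run 5′ to 3′ on the gene's strand and cover the 250 bases before a RefSeq transcript start (GRCm38.p6). Capitals mark GGGTGG or its reverse complement CCACCC, letters within the GLI consensus TGGGTGGTC.
Epha3 (strand −), chr16:63864176-63864425: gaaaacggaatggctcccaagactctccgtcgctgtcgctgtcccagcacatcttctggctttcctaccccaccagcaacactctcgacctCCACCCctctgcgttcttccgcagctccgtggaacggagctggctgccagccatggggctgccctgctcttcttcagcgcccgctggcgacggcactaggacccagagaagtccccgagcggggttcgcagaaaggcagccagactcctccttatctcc
Robo2 (strand −), chr16:74411826-74412075: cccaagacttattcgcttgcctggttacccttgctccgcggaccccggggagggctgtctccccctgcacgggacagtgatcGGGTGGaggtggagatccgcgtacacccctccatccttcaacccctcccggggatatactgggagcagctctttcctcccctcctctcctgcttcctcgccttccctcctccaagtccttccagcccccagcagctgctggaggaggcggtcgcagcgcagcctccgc
Epha4 (strand −), chr1:77515089-77515338: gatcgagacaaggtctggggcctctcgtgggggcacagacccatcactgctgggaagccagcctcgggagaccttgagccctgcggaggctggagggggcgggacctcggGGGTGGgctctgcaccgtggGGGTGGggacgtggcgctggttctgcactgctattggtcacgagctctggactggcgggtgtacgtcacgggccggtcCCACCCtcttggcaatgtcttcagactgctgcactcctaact
Slit2 (strand +), chr5:47982905-47983154: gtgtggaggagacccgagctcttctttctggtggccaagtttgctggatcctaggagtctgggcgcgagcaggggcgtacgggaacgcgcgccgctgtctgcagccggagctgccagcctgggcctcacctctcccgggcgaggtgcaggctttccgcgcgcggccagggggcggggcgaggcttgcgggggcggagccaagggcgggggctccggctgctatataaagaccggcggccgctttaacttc
The full GLI consensus, on either strand, was in 0 of 45 promoters of the 38 members that matched the RefSeq table and in 74 of 32851 promoters overall (0.225%). The shorter GGGTGG, on either strand, was in 19 of the 45 (42.2%) and in 9223 of 32851 (28.1%). Member promoters were richer in G and C, at a mean of 64.9% against 53.2% over all promoters, and the motif's own letters are mostly G. Within the members, the mean was 56.7% for promoters of genes called higher, 65.7% for those called lower and 66.8% for those tested but not called. The part of base composition in the number of matches was not tested. Among genes with a promoter in the table, the shorter motif was found in 3 of 4 called higher, 4 of 6 called lower and 10 of 26 tested but not called. Ntn1, called higher, and Rgma, called lower, are missing from these counts, and genes with several starts had more windows for a match. Epha4 had 3 matches, Epha3 had 1, and Slit2 had none in this window. Robo2 has 3 RefSeq starts, and the one shown abuts the gene as annotated in the deposited table. These matches describe letters in a window, not binding.

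The EphA receptors held the most opposed pair of changes. Epha3 (ENSMUSG00000052504, GRCm38 chr16:63543538-63864158, strand −), a receptor for ephrin-A ligands, measured 183, 277, 273 and 259 CPM in Sufu-cKO samples, against 115, 124, 146 and 137 CPM in control samples. The groups did not overlap, with Mut_295 the lowest of its group. Its mean was 248 ± 44 CPM in Sufu-cKO samples and 131 ± 13.5 CPM in control samples (SD, n = 4 each), a log2 fold change of 0.93 (standard error 0.130; adjusted p = 0.00165, edgeR), or 1.9-fold. Epha4 (ENSMUSG00000026235, chr1:77367185-77515088, strand −), which binds ephrins of both classes, measured 219, 266, 245 and 277 CPM in Sufu-cKO samples, against 468, 541, 561 and 434 CPM in control samples. The highest Sufu-cKO sample was well below the lowest control sample. The mean was 252 ± 25.2 CPM in Sufu-cKO samples and 501 ± 59.9 CPM in control samples (SD, n = 4 each), and the log2 fold change was −0.99 (standard error 0.094; adjusted p = 4.48e-05, edgeR), a ratio of 0.502.

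Per kilobase of exon, genes can be set beside each other only roughly, as the length joins all annotated exons of a gene. Such a length can exceed that of the transcripts made. On this scale Epha3 averaged 28.6 CPM per kb in Sufu-cKO samples and 15 CPM per kb in control samples. Epha4 averaged 31.2 CPM per kb in Sufu-cKO samples and 62.2 CPM per kb in control samples. The ratio of Epha3 to Epha4 per kb was 0.774, 0.968, 1.03 and 0.868 in Sufu-cKO samples, against 0.228, 0.213, 0.24 and 0.293 in control samples. The 2 receptors were thus near equal in Sufu-cKO tissue, whereas Epha4 was several times the higher in control tissue. Of the summed EphA signal per kb, Epha4 made up 41 ± 2.02% in Sufu-cKO samples and 63.8 ± 2.12% in control samples, and Epha3 made up 37.2 ± 2.87% in Sufu-cKO samples and 15.5 ± 1.7% in control samples (SD, n = 4 each). The summed signal itself was 63 to 82.2 CPM per kb in Sufu-cKO samples and 88.8 to 107 CPM per kb in control samples. These sums and shares follow from the gene values above and were not tested separately.

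Epha7 (ENSMUSG00000028289, chr4:28813131-28967499, strand +), a receptor with graded expression across the cortex, measured 53.9, 68.1, 80.1 and 62.2 CPM in Sufu-cKO samples, against 84.2, 85.3, 79.7 and 89.1 CPM in control samples. Mut_337 reached the control range, and the other Sufu-cKO samples were below it. On the log2 scale the fold change was −0.36 (standard error 0.101; adjusted p = 0.045, edgeR), and the call was lost when any sample but Mut_337 was left out (edgeR adjusted p 0.065 to 0.115, and 0.00432 without Mut_337). Epha5, a further ephrin-A receptor, averaged 141 ± 25.4 CPM in Sufu-cKO samples and 168 ± 19.8 CPM in control samples (SD, n = 4 each), with overlapping groups and an edgeR adjusted p of 0.292. Epha1, Epha2, Epha6 and Epha8 were all under 6 CPM in every sample and had log2 fold changes between −0.25 and 0.07, none of them called.

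**Figure D2:**
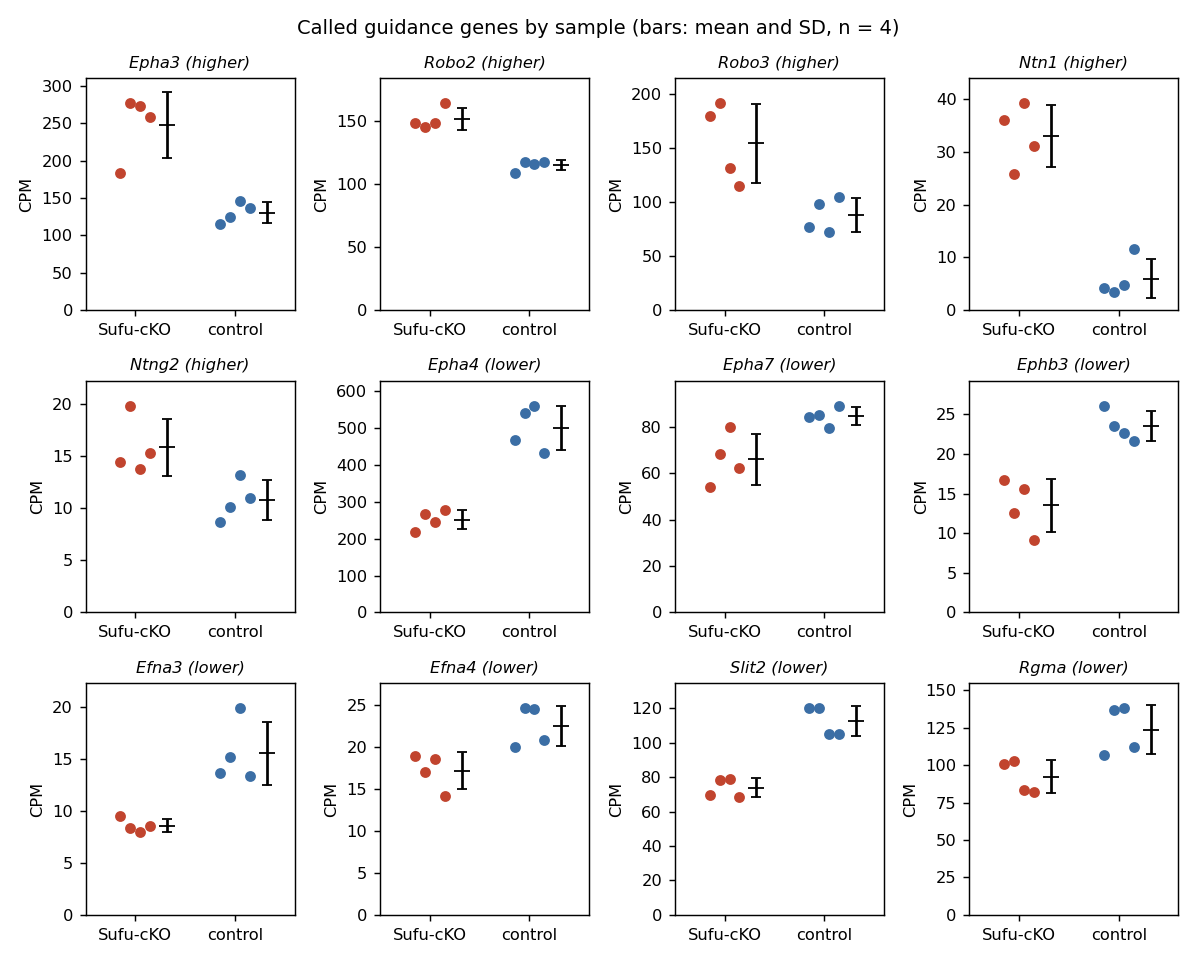
CPM of the 12 called guidance genes in each sample, Sufu-cKO (red) left of control (blue), with the mean and SD of each group (n = 4) beside the points. The groups are apart in every panel but that of Epha7, where Mut_337 at 80.1 CPM exceeds the lowest control sample at 79.7 CPM.

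Among the EphB receptors, Ephb3 was the only one of 5 called. Ephb3 (ENSMUSG00000005958, chr16:21204755-21223305, strand +), one of the receptors for ephrin-B ligands in forming commissures, measured 16.7, 12.6, 15.6 and 9.11 CPM in Sufu-cKO samples, against 26.1, 23.6, 22.7 and 21.7 CPM in control samples. No Sufu-cKO sample reached the lowest control sample. Its log2 fold change was −0.80 (standard error 0.161; adjusted p = 0.00856, edgeR). Ephb4, the ephrin-B2 receptor of venous endothelium, measured 53.8, 50.8, 55.4 and 37.9 CPM in Sufu-cKO samples, against 58.9, 66.7, 74.3 and 59.4 CPM in control samples. Its groups did not overlap either, but the log2 fold change of −0.39 (standard error 0.12) had an edgeR adjusted p of 0.0652. Endothelial genes summed to 302 to 360 CPM in Sufu-cKO samples and 358 to 412 CPM in control samples, with 0 of 12 higher and 3 lower. These sums overlapped only through Mut_337, at 360 CPM, and Cont_345, at 358 CPM. The pericyte sums, given above, did not overlap. The part of vessel cells in the values of Ephb4, Robo4 and Unc5b was not tested. Ephb2 was the EphB receptor with the highest level per kb, at 14.2 CPM per kb in Sufu-cKO samples and 16.8 CPM per kb in control samples, and it takes part in commissure formation as well. It measured 207, 195, 170 and 147 CPM in Sufu-cKO samples, against 198, 254, 213 and 182 CPM in control samples. With overlapping groups, its log2 fold change of −0.24 (standard error 0.125; adjusted p = 0.307, edgeR) had a 95% interval of −0.52 to 0.04. Ephb1, at 0.10, and Ephb6, which lacks kinase activity, at −0.05, had the smallest log2 fold changes of the 5.

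The ephrin-A ligands had 2 lower and 0 higher genes of 5. Efna3 (ENSMUSG00000028039, chr3:89313899-89322965, strand −) measured 9.5, 8.34, 7.97 and 8.59 CPM in Sufu-cKO samples, against 13.7, 15.2, 19.9 and 13.4 CPM in control samples. The Sufu-cKO samples were tightly grouped, and all lay below the controls. The fitted log2 fold change was −0.85 (standard error 0.134; adjusted p = 0.00153, edgeR). Efna4 (ENSMUSG00000028040, chr3:89333390-89338028, strand −) measured 18.9, 17, 18.6 and 14.1 CPM in Sufu-cKO samples, against 20, 24.6, 24.5 and 20.8 CPM in control samples. The gap between Mut_295 and Cont_294 was about 1 CPM. Its log2 fold change of −0.39 (standard error 0.111; adjusted p = 0.0425, edgeR) lost its call in 5 of the 8 fits that left out a sample (without Mut_317, Mut_340, Cont_345, Cont_365 or Cont_370; adjusted p 0.0518 to 0.133). Parts of the exons of Efna3 (14.1%) and Efna4 (10.5%) overlap exons of a gene on the opposite strand, and whether the counting used strand is not given in the sources used here. Efna5, the ligand best known for its gradient across the cortex, spread widely within both genotypes, with 21.8, 13.6, 27.9 and 22.6 CPM in Sufu-cKO samples, against 16.2, 13.1, 9.07 and 20.2 CPM in control samples. The groups overlapped, and its log2 fold change of 0.55 (standard error 0.276) had an edgeR adjusted p of 0.289. Efna1 and Efna2 had log2 fold changes of −0.28 and −0.21, neither called.

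The ephrin-B ligands were abundant, and none of the 3 was called. Efnb1, a transmembrane ephrin of cortical progenitors, averaged 69.1 CPM per kb in Sufu-cKO samples and 73.8 CPM per kb in control samples. It measured 276, 248, 227 and 203 CPM in Sufu-cKO samples, against 233, 283, 257 and 246 CPM in control samples. The groups overlapped, and the log2 fold change of −0.09 (standard error 0.092; adjusted p = 0.625, edgeR) had a 95% interval of −0.30 to 0.11. Efnb2, the ligand of Ephb4, averaged 379 ± 37.9 CPM in Sufu-cKO samples and 368 ± 7.13 CPM in control samples (SD, n = 4 each), a log2 fold change of 0.04 with an interval of −0.10 to 0.19. Efnb3, known as a midline repellent, had a log2 fold change of 0.14 (standard error 0.106). The summed ephrin-B signal was 149 ± 8.15 CPM per kb in Sufu-cKO samples and 149 ± 5.17 CPM per kb in control samples (SD, n = 4 each).

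Among Slits and Robos, 1 ligand was lower and 2 receptors were higher. Slit2 (ENSMUSG00000031558, chr5:47983155-48306282, strand +), a secreted repellent, measured 69.8, 78.5, 78.6 and 68.4 CPM in Sufu-cKO samples, against 120, 120, 105 and 105 CPM in control samples. The groups were far apart relative to their spread. Its log2 fold change was −0.61 (standard error 0.072; adjusted p = 0.000206, edgeR). Per kb, Slit1 was at 6.29 CPM per kb in Sufu-cKO samples and 6.51 in control samples. Slit2 was at 2.9 CPM per kb in Sufu-cKO samples and 4.42 in control samples. That order depends on the exon lengths used, 5921 bases for Slit1 and 25433 bases for Slit2. In CPM the order was the reverse. Slit2 averaged 73.8 CPM in Sufu-cKO samples and 112 CPM in control samples, and Slit1 averaged 37.3 and 38.5 CPM. Slit1 measured 43.5, 39.9, 30.1 and 35.5 CPM in Sufu-cKO samples, against 35.7, 41, 40 and 37.3 CPM in control samples. The groups overlapped, and the log2 fold change of −0.05 (standard error 0.103; adjusted p = 0.846, edgeR) had a 95% interval of −0.27 to 0.18. Slit3, at 2.94 to 6.51 CPM in Sufu-cKO samples and 3.94 to 5.82 CPM in control samples, had a log2 fold change of −0.07 (standard error 0.247).

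Robo2 (ENSMUSG00000052516, chr16:73892306-74411825, strand −), a Slit receptor of many long-range axons, measured 148, 145, 148 and 164 CPM in Sufu-cKO samples, against 109, 117, 116 and 117 CPM in control samples. Both groups were narrow, and they did not overlap. The difference as a log2 fold change was 0.40 (standard error 0.055; adjusted p = 0.000596, edgeR). Robo3 (ENSMUSG00000032128, chr9:37415669-37433163, strand −), best known from commissural axons, measured 179, 191, 131 and 115 CPM in Sufu-cKO samples, against 76.5, 97.7, 72 and 104 CPM in control samples. Mut_337 and Mut_340 lay close to the upper control samples, and the other two well above them. On the log2 scale the fold change was 0.82 (standard error 0.193; adjusted p = 0.0324, edgeR), and it lost its call in 5 of 8 fits that left out a sample (without Mut_295, Mut_317, Cont_294, Cont_345 or Cont_365; adjusted p 0.0621 to 0.0902). Per kb Robo3 was the highest Robo in both genotypes, at 22.5 CPM per kb in Sufu-cKO samples and 12.8 CPM per kb in control samples. This order also depends on the exon lengths used, 6848 bases for Robo3 and 16983 bases for Robo2. In CPM, Robo3 averaged 154 against 151 for Robo2 in Sufu-cKO samples, and 87.4 against 115 in control samples.

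Robo1, the other main neuronal Slit receptor, measured 77.3, 45.3, 77.5 and 81.7 CPM in Sufu-cKO samples, against 66.5, 66.9, 65.6 and 67.3 CPM in control samples. Mut_317 alone was below the controls, and the other Sufu-cKO samples were above them. The log2 fold change over all 8 samples was 0.08 (standard error 0.160; adjusted p = 0.83, edgeR). Left out after its value was seen, Mut_317 changed this to 0.24 (standard error 0.059; adjusted p = 0.0252, edgeR). Robo4, an endothelial member, averaged 12.7 ± 1.33 CPM in Sufu-cKO samples and 14.3 ± 1.15 CPM in control samples (SD, n = 4 each), a log2 fold change of −0.17 (edgeR adjusted p = 0.392). The summed Robo signal was 33.5 to 42 CPM per kb in Sufu-cKO samples and 24.1 to 29 CPM per kb in control samples.

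**Figure D3:**
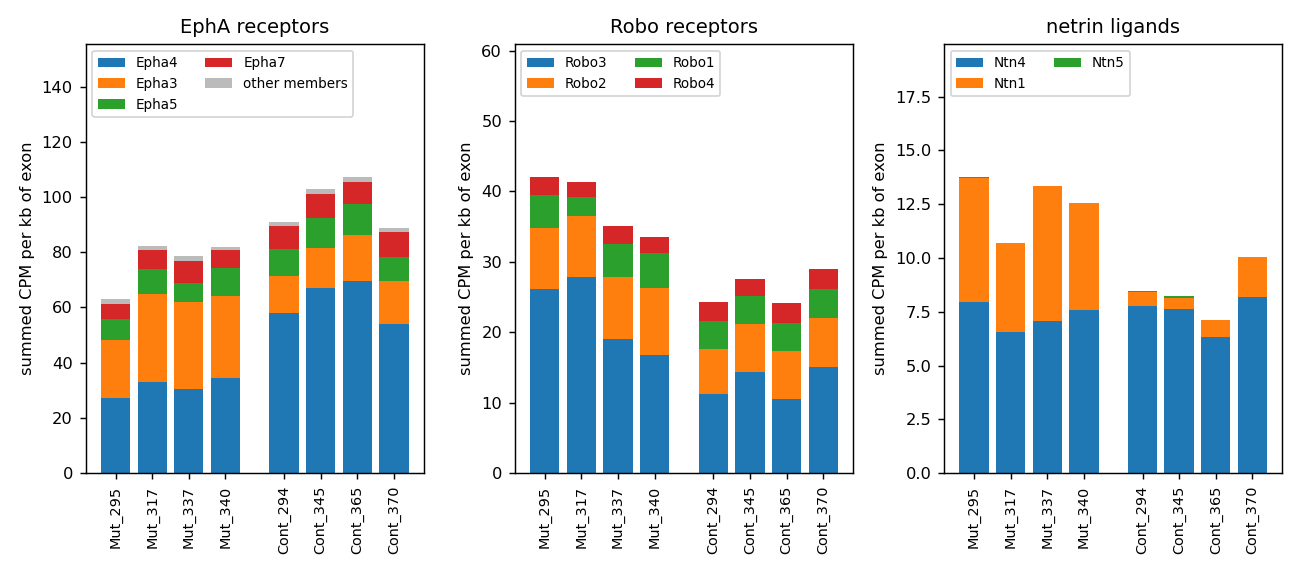
Summed CPM per kb of exon in each sample, stacked by gene, for EphA receptors, Robo receptors and netrin ligands, with Sufu-cKO samples left of controls. The Epha3 layer reaches 33.5 to 40% of the EphA sum in Sufu-cKO samples, against 13.9 to 17.8% in control samples, and Ntn1 is 38.4 to 46.8% of the netrin sum in Sufu-cKO samples, against 6.56 to 18.3% in control samples (Ntn3 is left out, as its deposited ID has no exon length).

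Ntn1 had the largest fold change of the 42 genes. Ntn1 (ENSMUSG00000020902, chr11:68209364-68400823, strand −), which encodes netrin-1, measured 36.1, 25.8, 39.2 and 31 CPM in Sufu-cKO samples, against 4.12, 3.39, 4.8 and 11.5 CPM in control samples. The highest control sample, Cont_370, was below the lowest Sufu-cKO sample by more than the range of the other three controls. The mean was 33.1 ± 5.88 CPM in Sufu-cKO samples and 5.96 ± 3.75 CPM in control samples (SD, n = 4 each), and the log2 fold change was 2.46 (standard error 0.391; adjusted p = 0.0072, edgeR), or 5.49-fold. Without Cont_370 the log2 fold change was 3.0 (edgeR adjusted p = 5.08e-06).

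Netrin-1 is also made in the ventral telencephalon, so Ntn1 was set beside 12 genes of GABAergic and ventral cells. Their summed level was 204, 32.3, 101 and 189 CPM in Sufu-cKO samples, against 25.2, 9.81, 44.3 and 112 CPM in control samples. The groups overlapped, 11 of the 12 were tested (Nkx2-1 was too low), and 0 were called in either direction, with a median log2 fold change of 1.30. Nkx2-1, which defines the medial ganglionic eminence, was at 0 in Mut_317 and Cont_345 and highest in Cont_365, at 3.03 CPM. Lhx6 was the only tested gene of the list with a negative log2 fold change, −1.08 (standard error 0.397; adjusted p = 0.13, edgeR). It was also highest in Cont_365, at 8.62 CPM.

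Gsx2, a marker of ventral progenitors, had the largest fold change of that list. It measured 17, 3.66, 10.9 and 17.5 CPM in Sufu-cKO samples, against 0.72, 0.109, 0.663 and 3.84 CPM in control samples. Its log2 fold change was 3.15 (standard error 0.929), and the groups overlapped only through Mut_317 and Cont_370. By edgeR the adjusted p was 0.0905, while the authors' deposited table gives Gsx2 a false discovery rate of 0.00271. Cont_370, the control sample with the most Ntn1, also had the highest ventral sum and the most Gsx2 of the controls, and Mut_317 had the lowest of all 3 among the Sufu-cKO samples. Within the controls, Ntn1 and the ventral sum rose in the same order, from Cont_345 through Cont_294 and Cont_365 to Cont_370. Between the genotypes this order did not hold, and among the Sufu-cKO samples Mut_337 departed from it. Mut_317, with a ventral sum of 32.3 CPM, had 25.8 CPM of Ntn1. Cont_365 and Cont_370 had higher sums, 44.3 and 112 CPM, but 4.8 and 11.5 CPM of Ntn1. Mut_337 had the most Ntn1, 39.2 CPM, at a sum of 101 CPM, below those of Mut_295 (204 CPM) and Mut_340 (189 CPM). The part of ventral cells in the Ntn1 difference was not tested.

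**Figure D4:**
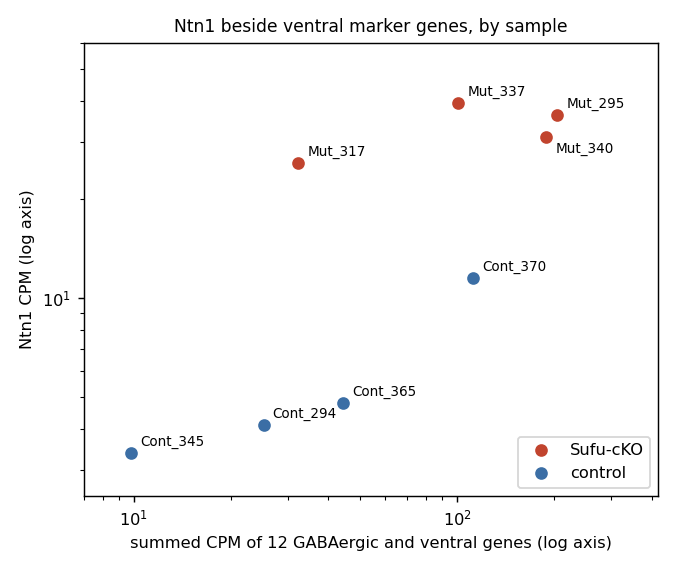
Ntn1 CPM against the summed CPM of 12 GABAergic and ventral telencephalic genes in each sample, both axes logarithmic. The 4 Sufu-cKO samples lie between 25.8 and 39.2 CPM of Ntn1 at marker sums of 32.3 to 204 CPM, above the 4 control samples at 3.39 to 11.5 CPM and marker sums of 9.81 to 112 CPM.

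Ntn4, a netrin that binds laminins in basement membranes, measured 29.8, 24.5, 26.5 and 28.4 CPM in Sufu-cKO samples, against 29, 28.5, 23.7 and 30.7 CPM in control samples. The groups overlapped almost fully, and the log2 fold change of −0.03 (standard error 0.094; adjusted p = 0.89, edgeR) had a 95% interval of −0.24 to 0.17. Per kb, Ntn4 was higher than Ntn1 in both genotypes, at 7.3 CPM per kb against 5.27 in Sufu-cKO samples and 7.47 against 0.949 in control samples. Ntn3 measured 10.9, 7.11, 13.3 and 8.59 CPM in Sufu-cKO samples, against 6.86, 6.05, 7.23 and 7.93 CPM in control samples, with a log2 fold change of 0.51 (standard error 0.180; adjusted p = 0.104, edgeR). Netrin-Gs are lipid-anchored relatives that bind the NGL proteins of the postsynaptic side rather than DCC. Ntng2 (ENSMUSG00000035513, chr2:29194541-29253005, strand −) measured 14.4, 19.8, 13.7 and 15.3 CPM in Sufu-cKO samples, against 8.64, 10.1, 13.2 and 11 CPM in control samples. Mut_337 and Cont_365 almost met, while the other samples were clearly apart. Its log2 fold change was 0.55 (standard error 0.149; adjusted p = 0.0324, edgeR), lost in 5 of 8 fits that left out a sample (without Mut_317, Mut_340, Cont_294, Cont_345 or Cont_370; adjusted p 0.0612 to 0.0968). It shares 14% of its exon bases with 6530402F18Rik on the same strand, which had a log2 fold change of 1.13 (edgeR adjusted p = 4.36e-05), so its value is uncertain. Ntng1, at 3.08, 1.9, 2.4 and 2.07 CPM in Sufu-cKO samples, against 1.2, 1.6, 1.17 and 1.86 CPM in control samples, had a log2 fold change of 0.69 (standard error 0.226; adjusted p = 0.0752, edgeR).

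None of the 6 netrin receptors was called. Dcc, the attractive netrin-1 receptor, measured 95.5, 95.4, 94 and 102 CPM in Sufu-cKO samples, against 120, 102, 85.1 and 103 CPM in control samples. The Sufu-cKO values lay inside the control range, and the log2 fold change of −0.08 had a 95% interval of −0.27 to 0.11. Neo1, encoding neogenin, measured 217, 264, 257 and 248 CPM in Sufu-cKO samples, against 235, 224, 232 and 215 CPM in control samples. Mut_295 alone lay within the control range, and Neo1 had a log2 fold change of 0.12 (standard error 0.065; adjusted p = 0.295, edgeR, and 0.0464 without Mut_295). Of the repulsive UNC5 receptors, Unc5b, which is also found on blood vessels, measured 26.1, 26.7, 26.7 and 16.3 CPM in Sufu-cKO samples, against 32, 30.3, 31.6 and 32.1 CPM in control samples. All Sufu-cKO samples were below the controls, with Mut_340 far below the rest. The log2 fold change of −0.40 (standard error 0.136) had an edgeR adjusted p of 0.0972, and of 0.0321 without Mut_340. Unc5d, a receptor of migrating cortical neurons, had a log2 fold change of −0.34 (standard error 0.155; adjusted p = 0.221, edgeR). Unc5a and Unc5c, at −0.04 and 0.09, had the smallest log2 fold changes of the 4.

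The 2 RGM ligands had opposite signs. Rgma (ENSMUSG00000070509, chr7:73375520-73419899, strand +), a neogenin ligand that repels axons, measured 101, 103, 83.3 and 82.2 CPM in Sufu-cKO samples, against 107, 137, 138 and 112 CPM in control samples. Mut_317 and Cont_294 were close to each other, and the groups did not overlap. Its log2 fold change was −0.42 (standard error 0.106; adjusted p = 0.0275, edgeR), and it lost its call in 4 of 8 fits that left out a sample (without Mut_337, Mut_340, Cont_345 or Cont_365; adjusted p 0.0647 to 0.0819). Rgma shares 4.65% of its exon bases with A730056A06Rik on the opposite strand. That gene averaged 7.62 CPM over all samples, with a log2 fold change of −0.45 (edgeR adjusted p = 0.0862). Rgmb, which also acts as a co-receptor for bone morphogenetic proteins, measured 38.8, 40.9, 47.9 and 40.3 CPM in Sufu-cKO samples, against 30.2, 35.7, 37.9 and 38.6 CPM in control samples. The lowest Sufu-cKO sample was just above the highest control, and the log2 fold change of 0.24 (standard error 0.092) had an edgeR adjusted p of 0.139. Draxin measured 116, 111, 90.1 and 139 CPM in Sufu-cKO samples, against 132, 137, 133 and 116 CPM in control samples. Mut_340 was the highest of all 8 samples, and the log2 fold change of −0.18 (standard error 0.112; adjusted p = 0.389, edgeR) had a 95% interval of −0.43 to 0.07.

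Of 43 tested genes acting downstream of or beside these receptors, 6 were called (14%), where 11.0% of all tested genes were. Of 17 tested genes acting with Eph receptors and ephrins, 0 were higher and 1 lower, with a median log2 fold change of −0.05. The lower gene, Kalrn, which acts in dendritic spines, measured 54.7, 71.1, 58.7 and 56 CPM in Sufu-cKO samples, against 66.8, 82.4, 82.3 and 73.9 CPM in control samples. Those groups overlapped, and the log2 fold change of −0.34 (edgeR adjusted p = 0.0354) lost its call in 6 of 8 fits that left out a sample (without Mut_295, Mut_337, Mut_340, Cont_345, Cont_365 or Cont_370; adjusted p 0.0587 to 0.112).

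Of 10 tested genes of the Slit and Robo pathway, 2 were higher and 0 lower, with a median log2 fold change of 0.05. Nell2, a secreted ligand of ROBO3, measured 197, 196, 193 and 204 CPM in Sufu-cKO samples, against 95.7, 108, 121 and 100 CPM in control samples, with a log2 fold change of 0.89 (standard error 0.070; adjusted p = 7.72e-06, edgeR). Srgap1, whose protein binds Robo receptors, measured 60, 83.9, 80.9 and 69.4 CPM in Sufu-cKO samples, against 32.5, 30.5, 34.8 and 49.2 CPM in control samples, with a log2 fold change of 1.0 (standard error 0.162; adjusted p = 0.00427, edgeR). In both genes every Sufu-cKO sample was above every control sample. Of the genes given above, Robo3 was also higher and Slit2 lower, and the call of Robo3 was lost in 5 of 8 fits that left out a sample. Whether these differences are related was not tested.

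Of 16 tested genes of the netrin and DCC pathway, 2 were higher and 1 lower, with a median log2 fold change of 0.03. Myo10, a motor protein that binds DCC, measured 147, 118, 134 and 129 CPM in Sufu-cKO samples, against 76.2, 71.6, 63.2 and 83.6 CPM in control samples (log2 fold change 0.84, standard error 0.088; adjusted p = 8.36e-05, edgeR). Ablim1, an actin-binding protein whose relative in the worm Caenorhabditis elegans acts in netrin signalling, measured 66.9, 63.9, 65.2 and 66.2 CPM in Sufu-cKO samples, against 43, 41.3, 51 and 46.4 CPM in control samples (log2 fold change 0.53, standard error 0.070; adjusted p = 0.000435, edgeR). Lrrc4c, which encodes the NGL partner of netrin-G1, measured 11.1, 14.8, 13.9 and 12.8 CPM in Sufu-cKO samples, against 37.7, 26.1, 28.7 and 19.8 CPM in control samples (log2 fold change −1.09, standard error 0.177; adjusted p = 0.00289, edgeR). The groups did not overlap in any of the 3 genes.

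With 1 sample left out at a time, 7 of the 12 called guidance genes were called in every fit. These were Epha3, Epha4, Ephb3, Efna3, Slit2, Robo2 and Ntn1, and they were also called under each other setting tried. The count of higher guidance genes was 3 without Cont_294 or without Cont_345, and the count of lower ones was 4 without Cont_345 or without Cont_365. The count over all genes was 1079 without Cont_345, against 1689 with all 8 samples.

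**Figure D5:**
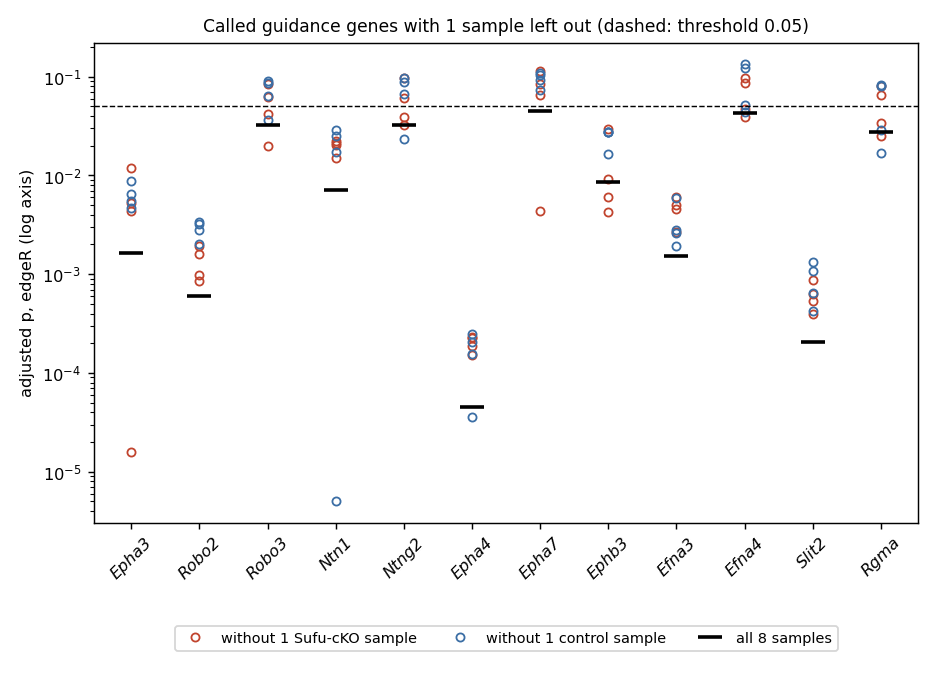
EdgeR adjusted p (log axis) of the 12 called guidance genes with all 8 samples (black bars) and with 1 Sufu-cKO (red) or 1 control (blue) sample left out, against the 0.05 threshold (dashed). For Epha7, Efna4, Robo3, Ntng2 and Rgma, 4 to 7 of the 8 circles lie above the threshold, and for the other seven genes none do.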

How the data were processed

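Per the labels, poly(A) RNA was purified with RNeasy columns and made into stranded TruSeq libraries. Per the submitters' processing notes, reads were aligned with STAR 2.4.2a to GRCm38; for the counter and its strand setting, no source used here states them. The deposited table holds the authors' raw counts per gene, their signal values (counts divided by size factors), a linear fold change and p-values with false discovery rates; the authors' fold and p-value columns served only as an alternative.

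The counts were tested with edgeR 4.0.16 (limma 3.58.1, R 4.3.3): filterByExpr kept 15382 of 43629 gene IDs (99.94% of counts), followed by TMM scaling, robust quasi-likelihood fits and Benjamini-Hochberg adjustment over all tested genes, called below 0.05. The biological coefficient of variation was 12.8%. A standard error is the log2 fold change divided by the square root of F, and 95% intervals use the t distribution with the fit's degrees of freedom. CPM uses TMM library sizes; per-kb values divide by GENCODE M21 exon-union length. No pair of replicates differed by less than sampling noise.

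The members and lists were chosen with earlier results of these data known. Full values are given for every called member, every member whose groups did not overlap and the tested member with the highest CPM per kb in each role, and for up to 6 called genes of each pathway list; those for Robo1, Efna5, Ntn3 and Dcc were chosen after their values were seen. The fit was tested on simulated counts. Alternatives were DESeq2 1.42.0, limma-voom, other scalings, filters and leaving out each sample; the closing section gives their effect.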

Additional observations from a re-analysis of the deposited data

Results flagged for a closer look

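In 3 of 96 groups of 4 samples (48 genes in each genotype), 1 sample stood apart from the others by more than Dixon's 95% critical value, where chance gives about 1 in 20 groups. Robo1 was 45.3 CPM in Mut_317, against 77.3 to 81.7 CPM in the other Sufu-cKO samples. Robo2 was 164 CPM in Mut_340, against 145 to 148 CPM in the other Sufu-cKO samples. Unc5b was 16.3 CPM in Mut_340, against 26.1 to 26.7 CPM in the other Sufu-cKO samples.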

How the results depend on the processing

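No paired analysis was possible because the Sufu-cKO and control samples share no replicate numbers in the labels. With 1 sample left out, the genes called numbered 1079 to 1836 over all genes (537 to 939 higher, 542 to 897 lower), 3 to 5 higher and 4 to 6 lower among the guidance genes, and 4 to 5 higher and 1 to 2 lower among the pathway genes. Under the other settings, 1463 to 2124 genes were called, with 4 to 5 guidance genes higher and 6 to 9 lower. Of 494 values of single genes under an alternative, 451 kept their sign and their side of the threshold, 35 fell short of it, 5 passed it and 3 reversed. The reversed values were small: Slit1 was 0.03 without Mut_337 (range −0.13 to 0.03), and Ntn4 was 0.01 without Mut_317 and 0.01 without Cont_370 (range −0.11 to 0.01). Apart from fits leaving out a sample, Efna4 was not called by limma-voom (adjusted p = 0.0502), Robo3 was not called with no low-count filter (edgeR adjusted p = 0.1), and Ntng2 was not called in the authors' deposited table (false discovery rate 0.0622), while DESeq2 also called Ephb4 and Unc5b. The causes were not tested. Members with few counts, such as Epha1 and Epha6, have wide intervals.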

Other observations

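Efna1, Efna3 and Efna4 are neighbours on chromosome 3 (GRCm38 chr3:89271733-89338028), and their log2 fold changes were −0.28, −0.85 and −0.39. Robo3 and Robo4 are neighbours on chromosome 9 and had log2 fold changes of 0.82 and −0.17.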
